A study of Mus musculus with 4 samples.

Results

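The S phase genes are a list of genes whose transcripts rise while a cell copies its DNA, and they are described here in hearts of mouse embryos at E10.5 measured with the 10x Genomics method for RNA of single cells. There a barcode marks the cell and a random tag, the unique molecular identifier (UMI), marks the molecule, so that amplified copies are counted once. The list holds 42 symbols, of which *Rrm1* stands 2 times, and all 41 distinct genes were found among the 32285 genes of the data by their symbols. Control hearts carry floxed alleles of *Tie2* (*Tek*), which encodes an angiopoietin receptor (label Tie2flfl), and *Tie2-cko* hearts carry the same floxed alleles together with a Cre knocked into *Nfatc1* (label Nfatcre-Tie2flfl). This Cre is active in the endocardium, where *Tie2* is lost. All hearts therefore carry the floxed *Tie2* alleles and only the *Tie2-cko* hearts carry Cre. The data hold 4 libraries, named after the numbers in their labels, 5 and 7 for the controls and 6 and 8 for the *Tie2-cko* hearts. The study's methods name 2 hearts of each genotype, matched by somite number between genotypes within a litter, and the labels do not say which libraries match. They were cells of whole dissected hearts, so each library holds all cell types of a heart.

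Before replication starts, each origin is loaded with the MCM2 to MCM7 ring, the core of the replicative helicase, and at the start of S phase CDC45 and the GINS complex turn that ring into an active helicase. Polymerases, a sliding clamp and its loader then copy the strands, ribonucleotide reductase and thymidylate synthase supply the nucleotides, and histone chaperones pack the new DNA. Many of these genes are transcribed under the control of E2F factors, which the retinoblastoma protein family holds back until cells enter the cycle. In the heart at this stage, CMs of the compact wall are known to divide more than those of the trabeculae, the muscle ridges that carry high *Nppa*.

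The libraries held between 169361996 and 259775540 UMIs, and 5684 to 10097 cells per library passed the filters, with medians of 14878 to 25875 UMIs. *Tie2-cko* library 6 had the fewest cells and the most UMIs per cell. Cells were divided into endocardial cells (EdCs) of the chambers and cushions, mesenchymal cells (MCs) of the cushions, epicardial cells and cardiomyocytes (CMs) of the ventricles, atria, sinus venosus and atrioventricular canal (SV/AVC) and outflow tract (OFT). The S phase genes and other cycle genes were left out of the variable genes used for clustering. Libraries 5 and 6 separated from libraries 7 and 8 in several CM clusters, so values of each library are given throughout. Between 29 and 62 barcodes were shared by any pair of libraries. Besides heart cells, the dissected tissue held red blood, epithelial, immune and neural cells. *Tek* in chamber EdCs stood at 0.915 and 0.949 UMIs per 10000 in the control libraries and at 0.132 and 0.137 in the *Tie2-cko* libraries. This was a log2 fold change of -2.61 ± 0.19 (standard error, edgeR quasi-likelihood test, adjusted p = 0.00625), so the labels match the deleted gene there.

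Short stretches of promoters are shown because binding sites of E2F factors are what many S phase genes are known to share in sequence, a feature that the list did not use. The RefSeq promoters on GRCm38.p6 span 250 bases before to 50 bases after a start site, and the first start listed was taken for each gene. They were found for 31 of the 41 genes. The letters TTTCCCGC, TTTGGCGC, TTTCGCGC and TTTGCCGC were searched on both strands, and matches on opposite strands can overlap. A match was found in 12 of these promoters (38.7%), against 626 of 27025 promoters of all genes (2.32%). Among promoters that also hold GGGCGG, a GC-rich element, the shares were 38.1% of the S phase genes and 4.39% of all genes. Of 57 other genes of the replication machinery, 17 of the 50 with a promoter held a match (34%), and of 54 genes of G2 and mitosis 2 of 47 (4.26%). CCAAT, in contrast, was in 71.0% of the promoters of S phase genes, 76.6% of those of G2 and mitosis genes and 37.9% of all. A match is a description of the letters and not a site shown to be bound.

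Windows of 30 bases that lie wholly before the start, with the match in capitals, are given 5′ to 3′ on the strand of the gene:
Mcm6 (chr1:128359797-128359826, minus strand): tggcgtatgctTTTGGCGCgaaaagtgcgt
Mcm6 (chr1:128359793-128359822, minus strand): gtatgcttttgGCGCGAAAagtgcgtgcgg
Mcm6 (chr1:128359734-128359763, minus strand): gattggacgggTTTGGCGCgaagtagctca
Cdca7 (chr2:72476137-72476166, plus strand): tgcgtcccggcGCGGGAAAgccggtggccc
Mcm7 (chr5:138172030-138172059, minus strand): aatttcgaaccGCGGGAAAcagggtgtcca
Mcm5 (chr8:75109345-75109374, plus strand): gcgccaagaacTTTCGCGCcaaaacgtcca
Mcm5 (chr8:75109349-75109378, plus strand): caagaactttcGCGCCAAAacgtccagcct
Cdc6 (chr11:98908002-98908031, plus strand): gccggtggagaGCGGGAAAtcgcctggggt
Hells (chr19:38930917-38930946, plus strand): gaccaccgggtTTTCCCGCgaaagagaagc
Pola1 (chrX:93632275-93632304, minus strand): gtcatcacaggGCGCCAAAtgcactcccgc
In *Mcm6* and *Mcm5* matches on opposite strands overlapped. *Cdc6*, *Mcm5*, *Mcm6* and *Mcm7* act at origins, *Hells* and *Cdca7* belong to a chromatin remodelling complex, and *Pola1* encodes the catalytic subunit of the polymerase that primes synthesis.

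The level of a gene is its number of UMIs in every 10000 of a cell, as the mean over all cells of that type in the library. Over all heart cells *Nasp*, a chaperone of histones H3 and H4, held 14.0% of the UMIs of the 41 genes, *Gmnn*, the inhibitor of origin licensing, 6.41% and *Pcna*, the sliding clamp, 4.89%. At the other end, *Mcm10*, which helps to activate the helicase, held 0.406%. Because 3′ tags are counted, shares compare captured molecules and are not corrected for capture or length.

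The genes differed in how closely they followed S phase. In ventricular CMs thinned to 5500 UMIs, each gene was compared among cells in the upper 25% for the other S phase genes but not for G2 and mitosis genes, cells in the upper 25% for G2 and mitosis genes alone, and cells in the lower 50% for both. *Ccne2*, an E-type cyclin that acts at the start of S phase, had a mean level of 0.792 in S-high cells, 0.0638 in G2-high cells and 0.114 in cells low for both. *Ung*, which removes uracil from DNA, and *Cdc6*, which loads the MCM ring, had the same shape, with S-high levels 11.4 and 9.70 times their G2-high levels. For *Blm*, a helicase that resolves recombination intermediates, that ratio was 1.06. It was 1.19 for *Tyms*, thymidylate synthase, and 1.19 for *Rrm1*, the large subunit of ribonucleotide reductase. *Blm*, *Tyms* and *Rrm1* thus stayed nearly as high in cells rich in mitotic transcripts, while *Ccne2*, *Ung* and *Cdc6* were lower there than in cells low for both. *Gmnn* and *Nasp*, which hold the largest shares, lay between, at 1.64 and 1.44. The rise over cells low for both was steepest for *Mcm10*, *Clspn*, a checkpoint adaptor, and *Exo1*, a nuclease, at 15.1, 13.3 and 12.2 times, and smallest for *Rfc2*, a subunit of the clamp loader, at 1.82 times. These ratios describe cells chosen by genes of the same kind and carry no test.

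**Figure D1:**
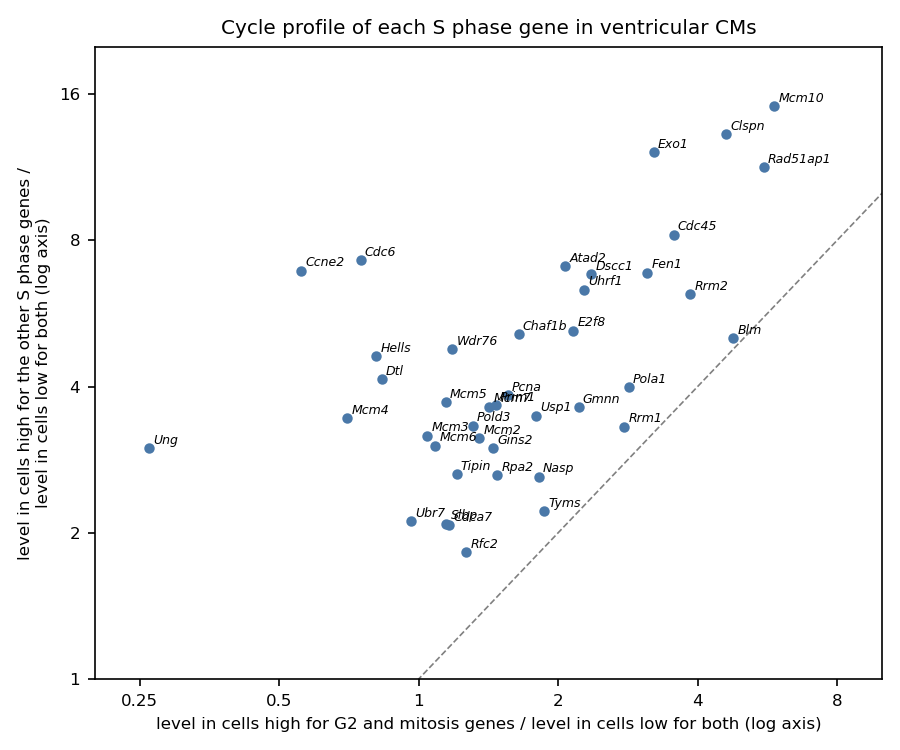
Each point is 1 of the 41 S phase genes in ventricular CMs thinned to 5500 UMIs (mean of 4 libraries). The y axis is the level in cells high for the other S phase genes over that in cells low for S phase, G2 and mitosis genes, the x axis is the same ratio for cells high for G2 and mitosis genes (both log axes), and the dashed line marks equal ratios. *Blm* lies near the line, and *Ung*, *Ccne2* and *Cdc6* lie far to its left.

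The summed level of the 41 genes was higher in the linings and cushions of the heart than in its muscle. Epicardial cells were highest, with 34.6 and 37.3 (control) and 34.9 and 34.1 (*Tie2-cko*) UMIs per 10000. Next came cushion MCs, with 30.3 and 29.0 (control) and 31.2 and 29.5 (*Tie2-cko*). Chamber EdCs stood at 29.3 and 32.6 (control) and 28.0 and 25.5 (*Tie2-cko*). Cushion EdCs followed with 26.7 and 26.6 (control) and 27.5 and 25.1 (*Tie2-cko*). All groups of CMs were lower on this scale. Ventricular CMs with low *Nppa* were at 24.2 and 25.7 (control) and 22.8 and 23.4 (*Tie2-cko*), and those with high *Nppa* at 19.6 and 19.99 (control) and 19.9 and 19.7 (*Tie2-cko*). Atrial CMs held 15.2 and 16.2 (control) and 17.6 and 16.2 (*Tie2-cko*), SV/AVC CMs 11.6 and 9.67 (control) and 15.4 and 11.2 (*Tie2-cko*) and OFT CMs 7.44 and 7.51 (control) and 8.96 and 7.64 (*Tie2-cko*). Neighbours in this order differed in the same direction in 4 of 4 libraries, except cushion MCs and chamber EdCs, which differed by 1.13 ± 3.44 (SD over libraries) with chamber EdCs higher in control library 7. In cells thinned to equal depth, cushion EdCs were also above chamber EdCs in library 6 (27.0 against 26.6). CMs hold many transcripts of sarcomere genes. With sarcomere, globin and mitochondrial genes left out of the denominator, ventricular CMs with low *Nppa* stood at 27.9 and 29.5 (control) and 26.1 and 26.7 (*Tie2-cko*) and cushion EdCs at 28.0 and 27.8 (control) and 28.5 and 26.2 (*Tie2-cko*). The means of these 2 types were then nearly equal (27.5 and 27.6), and the CMs were higher in libraries 7 and 8. A module score was also taken, the mean log-normalized level of the 41 genes minus that of control genes in thinned cells. By that score ventricular CMs with low *Nppa* were at -0.0979 and -0.0957 (control) and -0.119 and -0.113 (*Tie2-cko*). Cushion EdCs were at -0.0987 and -0.0985 (control) and -0.108 and -0.114 (*Tie2-cko*), above those CMs in library 6 alone. SV/AVC and OFT CMs kept their order in 3 of 4 libraries under the stricter filter of cells.

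**Figure D2:**
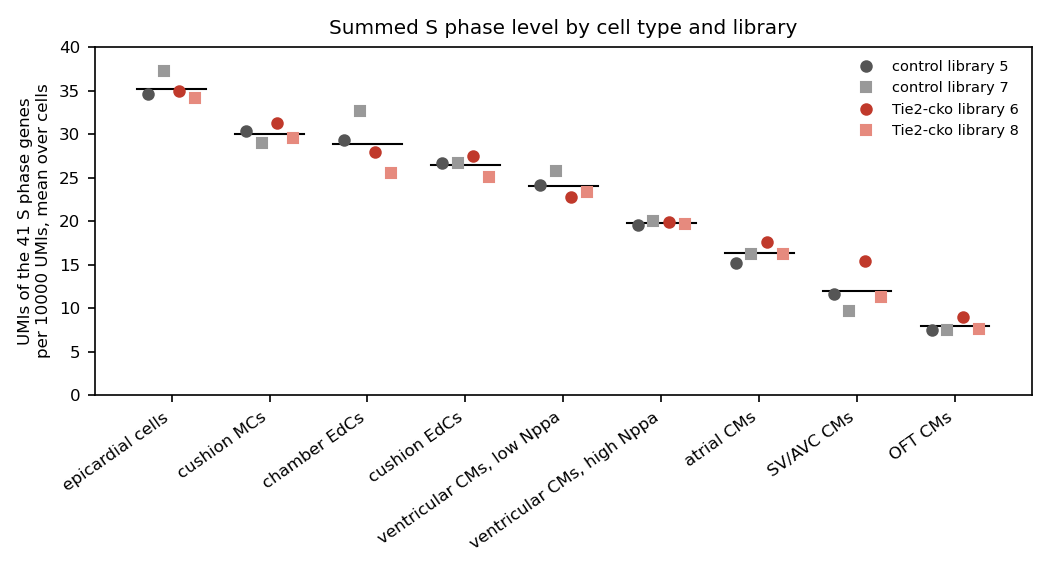
UMIs of the 41 S phase genes per 10000 UMIs (y axis, mean over cells) in 9 cell types (x axis). Each point is a library and each line the mean of the 4 libraries. Levels fall from 35.2 in epicardial cells to 7.89 in OFT CMs, and the widest spread within a type is that of chamber EdCs, from 25.5 to 32.6.

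Depth differed between the types. Ventricular CMs with low *Nppa* held the most UMIs per cell of the 9 types, with medians of 27219.5 to 58805 over the libraries, against 11249 to 27905 in cushion MCs. Cells with at least 5500 UMIs were thinned to that number, which left out 261 of 10593 control and 324 of 8695 *Tie2-cko* cells. The loss was uneven. In ventricular CMs with high *Nppa* it was 37 of 1331 and 21 of 1610 in control libraries. It was 112 of 635 in *Tie2-cko* library 6 and 34 of 1981 in *Tie2-cko* library 8. In the thinned cells the levels of epicardial cells were 33.6 to 37.7, those of ventricular CMs with high *Nppa* 19.6 to 19.95 and those of OFT CMs 7.18 to 8.83. At that equal depth the median cell held 18 to 20 UMIs of S phase genes in epicardial cells and 3 in OFT CMs of every library. Cells with 20 or more such UMIs made up 40.1 to 51.3% of epicardial cells, 16.9 to 22.5% of ventricular CMs with low *Nppa* and 1.36 to 3.04% of OFT CMs. The lower mean of OFT CMs thus came with fewer cells rich in S phase transcripts, and 70 to 79.6% of them held 5 or fewer UMIs.

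The 54 genes of G2 and mitosis gave another order. Their summed level was 57.3 to 68.9 in chamber EdCs and 68.6 to 81.4 in ventricular CMs with low *Nppa*, although the S phase level was higher in chamber EdCs. OFT CMs were lowest here too, at 19.95 to 27.3, and SV/AVC CMs next, at 35.4 to 39.6. Both lists were thus lowest in OFT and SV/AVC CMs, while chamber EdCs held more of the S phase list and less of the other than ventricular CMs with low *Nppa*.

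Fold changes between cell types were fitted by edgeR with TMM scaling, under which the median of all genes stayed near 0, whereas levels are shares of all UMIs of a cell. Scaled to total UMIs alone, the median log2 fold change of all genes was itself 0.22 for chamber EdCs and 0.26 for epicardial cells against ventricular CMs, 0.13 for cushion against chamber EdCs and -0.11 for high against low *Nppa*. Ratios of levels differ from fold changes by about that much. Where the choice turned the direction of an S phase gene called under TMM scaling, both are given.

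OFT CMs had the lowest level of every S phase gene. Against ventricular CMs (those with high and low *Nppa* averaged, 1 fit over 9 cell types with the library as a block), all 41 were lower at an adjusted p under 0.05, where 31.6% of all genes were lower and 29.8% higher. The median log2 fold change was -1.56, against -0.01 over all genes tested. The difference in summed level was -14.0 ± 1.23 per 10000 (mean and SD of the differences within libraries, lower in 4 of 4 libraries, exact sign-flip permutation p = 0.125, the smallest that 4 libraries allow). *E2f8*, a repressor of E2F targets that is itself such a target, fell most, by 2.79 ± 0.14 on the log2 scale. Its level in OFT CMs was 0.0215 and 0.0198 (control) and 0.0725 and 0.0255 (*Tie2-cko*) against 0.198 to 0.245 in ventricular CMs with low *Nppa*, and *Tie2-cko* library 6 stood above the other 3. *Rrm2*, the small and rate-limiting subunit of ribonucleotide reductase, was in OFT CMs at 0.195 and 0.224 (control) and 0.166 and 0.171 (*Tie2-cko*) and in ventricular CMs with high *Nppa* at 0.760 to 1.05 (log2 fold change -2.39 ± 0.13). *Cdc6* (-2.46 ± 0.18) and *Mcm10* (-2.41 ± 0.21) led the genes of licensing and the helicase, at 0.0216 to 0.0259 and 0.00547 to 0.0222 per 10000 in OFT CMs. *Clspn* (-2.36 ± 0.14) led the genes of repair and fork protection, at 0.0492 to 0.0781 against 0.375 to 0.474 in ventricular CMs with low *Nppa*, and *Atad2*, a chromatin ATPase (-2.24 ± 0.13), those of chromatin. No library of OFT CMs reached the ventricular range of *Clspn*. The smallest changes were those of *Ubr7*, a histone ubiquitin ligase (-0.47 ± 0.08), *Slbp*, which binds the stem-loop of histone mRNAs (-0.67 ± 0.07), and *Rfc2* (-0.72 ± 0.06). The levels of these 3 in OFT CMs were 0.138 to 0.188, 0.277 to 0.360 and 0.440 to 0.590. Of the 57 other replication genes 56 were lower, and of the 54 genes of G2 and mitosis all 54 were lower.

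Atrial CMs lay between the ventricles and the SV/AVC region. Of the 41 genes 28 were lower than in ventricular CMs and 0 higher, where 23.5% of all genes were lower and 20.2% higher, and the difference in summed level was -5.60 ± 1.40 (lower in 4 of 4 libraries). *Uhrf1*, which carries DNA methylation over to the new strand, changed most (-0.76 ± 0.09, adjusted p = 1.68e-08), from 0.327 to 0.434 and 0.249 to 0.360 per 10000 in ventricular CMs with low and high *Nppa* to 0.175 and 0.162 (control) and 0.206 and 0.154 (*Tie2-cko*) in atrial CMs. *Ung* (-0.66 ± 0.07) and *Rrm2* (-0.67 ± 0.10) followed among the nucleotide genes, with *Rrm1* at -0.53 ± 0.07. *Mcm10* gave -0.70 ± 0.12 and *Chaf1b*, a subunit of the chromatin assembly factor, -0.54 ± 0.10. The *Ung* level was 0.217 and 0.203 (control) and 0.248 and 0.231 (*Tie2-cko*) in atrial CMs, and no library reached the range of ventricular CMs with high *Nppa* (0.379 to 0.419). Several genes of DNA synthesis were not called, among them *Prim1*, the primase (-0.05 ± 0.08, adjusted p = 0.591), and *Fen1*, the flap endonuclease (0.15 ± 0.09, adjusted p = 0.164).

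SV/AVC CMs came from 1 sub-cluster with markers of the atrioventricular canal (*Bmp2*, *Rspo3*, *Tbx3*) and 2 with markers of the sinus venosus (*Shox2*, *Vsnl1*, *Hcn4*). The canal had summed levels of 9.88 and 7.87 (control) and 13.8 and 9.79 (*Tie2-cko*), and the sinus venosus 13.9 and 13.8 (control) and 17.0 and 15.98 (*Tie2-cko*). The sinus venosus was higher in 4 of 4 libraries, and in each library the canal was closer to OFT CMs.

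Within the ventricles, S phase genes were higher where *Nppa* was low. The 2 groups were set by *Nppa*, a gene of the trabecular wall, and sub-clusters fell in the low group below 0.5 of the median *Nppa* of ventricular sub-clusters. The nearest sub-clusters on either side had 5.72 and 30.4 UMIs of *Nppa* per 10000. The difference in summed level, high minus low *Nppa*, was -4.23 ± 1.22 (lower in 4 of 4 libraries, exact sign-flip permutation p = 0.125). Without the removal of doublets it was -2.58, with library 6 turned (21.2 with high and 20.7 with low *Nppa*). Of the 41 genes 16 were lower and 1 higher with high *Nppa*, against 18.1% and 17.8% of all genes, so the number called was near the background and the split between directions was not. Scaled to total UMIs, 26 were lower and 0 higher, against 29.7% and 10.1% of all genes. *Pola1* changed most (-0.50 ± 0.07, adjusted p = 5.91e-07), from 0.280 and 0.338 (control) and 0.254 and 0.349 (*Tie2-cko*) with low *Nppa* to 0.189 and 0.219 (control) and 0.184 and 0.211 (*Tie2-cko*) with high *Nppa*. *Clspn* (-0.39 ± 0.10), *Blm* (-0.38 ± 0.09), *Exo1* (-0.37 ± 0.11), *Atad2* (-0.36 ± 0.10) and *Mcm10* (-0.36 ± 0.11) followed. *Clspn* was at 0.474 and 0.469 (control) and 0.415 and 0.375 (*Tie2-cko*) with low and 0.310 and 0.292 (control) and 0.331 and 0.259 (*Tie2-cko*) with high *Nppa*, and the groups did not overlap. The 1 gene higher with high *Nppa* was *Ung* (0.23 ± 0.07, adjusted p = 0.00889), at 0.419 and 0.379 (control) and 0.417 and 0.398 (*Tie2-cko*) against 0.387 and 0.362 (control) and 0.416 and 0.350 (*Tie2-cko*) with low *Nppa*. It was higher in 4 of 4 libraries, but the ranges overlapped and it was not called when scaled to total UMIs, when thinned, under the stricter filter of cells or without library 8. *Nasp* fell by 0.30 ± 0.08 on the log2 scale, with 3.21 to 3.74 per 10000 at low and 2.35 to 2.64 at high *Nppa*, while *Gmnn* and *Pcna* gave -0.07 ± 0.07 and -0.11 ± 0.07 (adjusted p = 0.494 and 0.218). In all 10 genes were called without library 5 and 11 without library 8, in place of 17, with no share of all genes given beside these. The split also depended on the clustering. Where cycle genes were kept in it, 15 S phase genes were higher and 5 lower with high *Nppa*, against 24.4% and 19.5% of all genes, and the difference in summed level was -1.42. Library 6 turned there too (21.0 with high and 19.7 with low *Nppa*), and library 5 was level (20.9 and 21.0). *Mcm3*, *Mcm4*, *Nasp* and *Uhrf1* changed sign there. The group with low *Nppa* was not the same in that clustering. It held 85 and 158 (control) and 49 and 105 (*Tie2-cko*) cells, in place of 549 and 560 (control) and 271 and 562 (*Tie2-cko*). Its level of G2 and mitosis genes was 87.4 to 102.2, in place of 68.6 to 81.4. With cycle genes left out, genes of G2 and mitosis moved the same way as the S phase genes, 34 of 54 lower and 1 higher.

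A division by the *Nppa* of single cells, among the cells that the sub-clusters named ventricular, gave the same direction. Ventricular CMs thinned to 5500 UMIs were divided within each library into 5 equal bins by their own *Nppa*, whose mean was at most 0.376 per 10000 in the lowest bin and at least 133 in the highest. The summed S phase level went from 23.5 and 25.1 in the lowest bin of the control libraries to 16.2 and 13.5 in the highest, and from 23.4 and 22.7 to 16.9 and 15.6 in the *Tie2-cko* libraries. The highest bin was thus lower by 27.6 to 46.1% of the lowest (mean difference -8.08 ± 2.33, SD, n = 4, exact sign-flip permutation p = 0.125). The step between bins 4 and 5 was the widest in each library, and library 7 fell from 21.1 to 13.5 and library 8 from 20.2 to 15.6. Genes of G2 and mitosis were lower in the highest bin by 27.0 to 38.8%. Each of the 41 genes had a lower mean in the highest bin, 35 in 4 of 4 libraries and 6 in 3 of 4. *Exo1*, *Mcm10* and *Pola1* stood at 0.167, 0.0935 and 0.269 in the lowest bin and at 0.0670, 0.0451 and 0.131 in the highest. *Rfc2* changed least, from 0.835 to 0.715. *Ung* was lower in the highest bin too (0.390 to 0.312, 4 of 4 libraries), the opposite of its direction between the sub-clusters. The sub-cluster with the highest *Nppa* (219.7 per 10000) had summed levels of 11.5 and 9.02 (control) and 13.1 and 14.0 (*Tie2-cko*), with 45 cells in library 6. Without it the other ventricular CMs with high *Nppa* were at 20.3 and 21.2 (control) and 20.4 and 20.3 (*Tie2-cko*), still below those with low *Nppa* in 4 of 4 libraries.

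**Figure D3:**
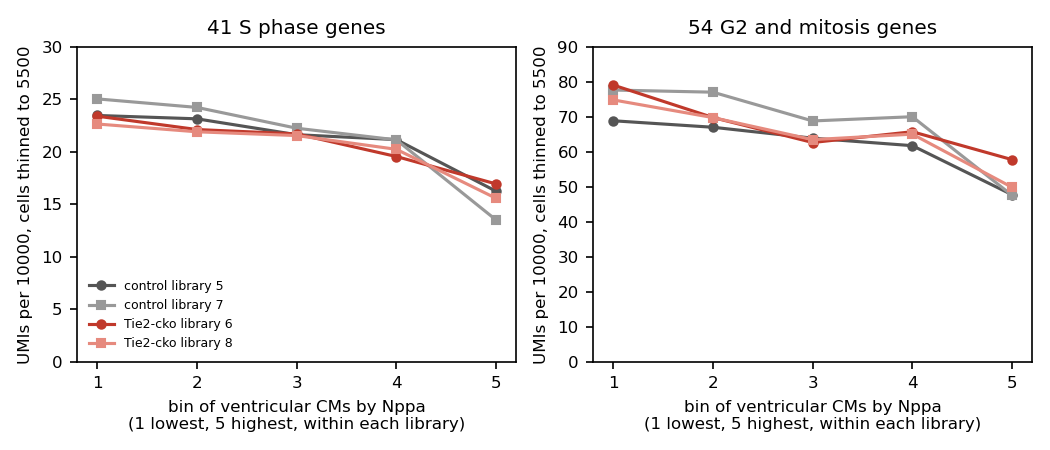
Summed levels (y axis, UMIs per 10000 in cells thinned to 5500 UMIs) of S phase genes on the left and of G2 and mitosis genes on the right, in ventricular CMs divided into 5 bins by *Nppa* within each library (x axis, 1 lowest to 5 highest). Each line is a library, and all 4 are lowest in bin 5 for both lists.

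Chamber EdCs, the endothelium lining the trabeculae, differed from ventricular CMs in which S phase genes they held. The summed level was higher by 6.96 ± 2.39 (4 of 4 libraries, exact sign-flip permutation p = 0.125). Of the 41 genes 22 were higher and 7 lower, against 33.9% and 41% of all genes, so 29 of 41 is no more than the share of all genes called. Scaled to total UMIs, 33 were higher and 3 lower, against 48.6% and 28.7% of all genes. *Tyms* led, with 1.99 and 2.36 (control) and 1.75 and 1.5 (*Tie2-cko*) in chamber EdCs against 0.559 to 0.683 and 0.481 to 0.545 in ventricular CMs with low and high *Nppa* (1.52 ± 0.09, adjusted p = 1.29e-17). *Slbp* was at 1.11 and 1.33 (control) and 1.07 and 1.19 (*Tie2-cko*) against 0.453 to 0.479 with low *Nppa* (1.15 ± 0.06). *Dtl*, an adaptor of the ligase that degrades CDT1 (0.85 ± 0.10), *Cdca7* (0.84 ± 0.08), *Hells* (0.70 ± 0.08) and *Cdc6* (0.67 ± 0.10) were next, and *Cdca7* was at 0.474 and 0.401 (control) and 0.562 and 0.441 (*Tie2-cko*) against 0.214 to 0.241. For *Tyms*, *Slbp* and *Cdca7* no library of chamber EdCs reached down to the range of ventricular CMs. In the other direction *E2f8* was at 0.0799 and 0.117 (control) and 0.0873 and 0.0777 (*Tie2-cko*) against 0.198 to 0.245 (-1.14 ± 0.10), *Ung* at 0.252 and 0.255 (control) and 0.252 and 0.251 (*Tie2-cko*) against 0.350 to 0.416 (-0.91 ± 0.08) and *Gmnn* at 1.09 and 1.47 (control) and 0.900 and 1.22 (*Tie2-cko*) against 1.5 to 1.92 (-0.72 ± 0.07). *Rrm2* (-0.48 ± 0.10), *Cdc45*, a part of the active helicase (-0.43 ± 0.10), *Blm* (-0.24 ± 0.09) and *Mcm2* (-0.21 ± 0.09) were lower as well, the last 2 with the opposite sign when scaled to total UMIs (0.042 and 0.079). *Tyms* and *Rrm2*, which both act in making deoxynucleotides, thus went in opposite directions. Of the genes of G2 and mitosis 11 were higher and 33 lower, and of the 57 other replication genes 21 and 19.

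Cushion EdCs, which line the valve primordia, held less than chamber EdCs. Of the 41 genes 26 were lower and 1 higher, against 23.7% and 21.5% of all genes. The difference in summed level was -2.39 ± 2.61, lower in 4 of 4 libraries, and -1.20 without library 7. It was -2.65 and -5.99 in control and -0.525 and -0.416 in *Tie2-cko* libraries, and whether it differs by genotype was not tested. From counts summed over cells, as in thinned cells, library 6 turned (29.8 in cushion and 29.2 in chamber EdCs from summed counts). *Wdr76* (-0.71 ± 0.12), *Ung* (-0.65 ± 0.11), *Gins2*, a subunit of GINS (-0.63 ± 0.09), *Tyms* (-0.63 ± 0.11), *Mcm5* (-0.62 ± 0.11) and *Rad51ap1* (-0.61 ± 0.12) changed most. *Wdr76* was at 0.230 and 0.221 (control) and 0.208 and 0.174 (*Tie2-cko*) in cushion EdCs and 0.294 and 0.309 (control) and 0.319 and 0.261 (*Tie2-cko*) in chamber EdCs, and the groups did not overlap. *Tyms* was at 1.51 and 1.33 (control) and 1.27 and 1.38 (*Tie2-cko*) in cushion EdCs, lower than in chamber EdCs in each library, though the highest cushion library lay above the lowest chamber library. Scaled to total UMIs, 16 genes were lower and 2 higher, against 15.1% and 31.3% of all genes. The 1 gene higher under TMM scaling was *Mcm6*, a subunit of the MCM ring (0.33 ± 0.09, adjusted p = 0.0024). It was at 1.35 and 1.08 (control) and 1.74 and 1.14 (*Tie2-cko*) in cushion EdCs. In chamber EdCs it was at 0.936 and 0.844 (control) and 1.02 and 0.844 (*Tie2-cko*). *Mcm5* apart, the other subunits of the ring gave -0.19 ± 0.11 for *Mcm2*, -0.13 ± 0.09 for *Mcm3*, 0.14 ± 0.10 for *Mcm4* and -0.11 ± 0.10 for *Mcm7*. None of these passed the test under TMM scaling. Over all settings run, *Mcm3* went from -0.18 to 0.022 and *Mcm7* from -0.17 to 0.039. *Mcm4* went from 0.043 to 0.29, and its lowest adjusted p in these fits (edgeR or DESeq2) was 0.0199.

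Cushion MCs arise from cushion EdCs by an epithelial to mesenchymal transition, and they held more. Of the 41 genes 24 were higher and 3 lower than in cushion EdCs, against 27% and 24.7% of all genes. The summed level was higher by 3.53 ± 0.865 in 4 of 4 libraries. *Dscc1*, a part of the clamp loader used in cohesion, rose most (1.01 ± 0.12), from 0.109 and 0.0985 (control) and 0.117 and 0.104 (*Tie2-cko*) to 0.188 and 0.200 (control) and 0.213 and 0.214 (*Tie2-cko*). *Blm* (0.72 ± 0.11), *Exo1* (0.58 ± 0.15), *Gmnn* (0.56 ± 0.08), *Gins2* (0.48 ± 0.09) and *Mcm5* (0.45 ± 0.11) followed. *Blm* was at 0.252 and 0.233 (control) and 0.240 and 0.260 (*Tie2-cko*) in cushion EdCs and 0.394 and 0.366 (control) and 0.365 and 0.356 (*Tie2-cko*) in cushion MCs. Neither *Dscc1* nor *Blm* overlapped between the types. The 3 that fell were *Wdr76* (-0.59 ± 0.13), *Ubr7* (-0.48 ± 0.08) and *Mcm6* (-0.24 ± 0.09). Of the genes of G2 and mitosis 41 of 54 rose and 2 fell.

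Epicardial cells, the mesothelium on the outside of the heart, had the highest level of 24 of the 41 genes. Against ventricular CMs 28 were higher and 6 lower, where 35.1% and 39.4% of all genes were. Scaled to total UMIs, 35 were higher and 2 lower, against 51.5% and 25.5% of all genes. The summed level was higher by 13.3 ± 0.872 (4 of 4 libraries). *Hells* (1.15 ± 0.08), *Tyms* (1.09 ± 0.09), *Slbp* (1.06 ± 0.06), *Mcm4* (0.90 ± 0.08), *Atad2* (0.86 ± 0.09) and *Cdca7* (0.87 ± 0.08) led. *Hells* was at 1.23 and 1.21 (control) and 1.40 and 1.08 (*Tie2-cko*) in epicardial cells against 0.480 to 0.579 and 0.370 to 0.402 in ventricular CMs with low and high *Nppa*. *Tyms* stood at 1.23 to 1.57 and *Slbp* at 1.03 to 1.25 in epicardial cells. All 7 chromatin genes of the list (*Nasp*, *Slbp*, *Chaf1b*, *Uhrf1*, *Hells*, *Atad2* and *Cdca7*) were higher. The lower genes were *E2f8* (-0.73 ± 0.09), *Rrm2* (-0.64 ± 0.10), *Cdc45* (-0.39 ± 0.09), *Wdr76* (-0.26 ± 0.09), *Ung* (-0.16 ± 0.07) and *Blm* (-0.22 ± 0.08). *Wdr76*, *Ung* and *Blm* changed sign when scaled to total UMIs (0.032, 0.14 and 0.081). *Rrm2* was at 0.646 and 0.993 (control) and 0.717 and 0.918 (*Tie2-cko*) in epicardial cells and at 0.995 and 1.38 (control) and 1.08 and 1.17 (*Tie2-cko*) in ventricular CMs with low *Nppa*, and it was lower in epicardial cells in 4 of 4 libraries.

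**Figure D4:**
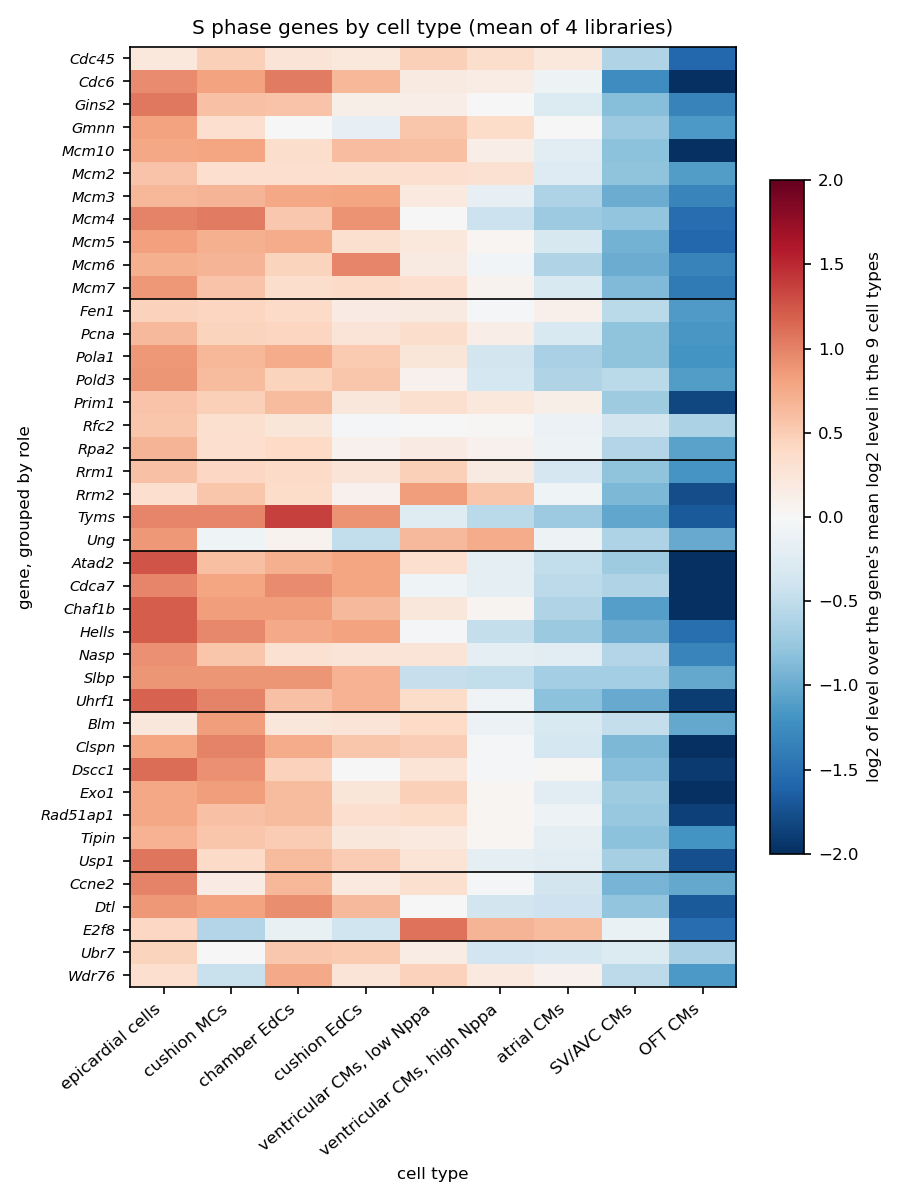
Level of each S phase gene (rows, grouped by role in the order helicase and licensing, DNA synthesis, nucleotide supply, chromatin, repair, cycle control and others) in 9 cell types (columns), as the log2 of the mean of 4 libraries minus that gene's mean over the types. The colour scale ends at 2 and -2. The OFT column is lowest in all 41 rows, and *E2f8*, *Ung* and *Rrm2* are high in ventricular CMs where *Tyms*, *Slbp* and *Hells* are not.

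The 3 genes of highest level followed the order of the types unequally. *Nasp* went from 5.33 and 5.83 (control) and 5.44 and 4.98 (*Tie2-cko*) in epicardial cells to 1.04 and 1.14 (control) and 1.28 and 1.13 (*Tie2-cko*) in OFT CMs. *Gmnn* was at 1.5 to 1.92 in ventricular CMs with low *Nppa*, above chamber EdCs in each library, and *Pcna* at 1.07 to 1.38 in ventricular CMs with low *Nppa* and 1.11 to 1.62 in chamber EdCs, where the ranges overlapped. From the highest to the lowest type the mean level of *Atad2* differed 11.6 times, that of *Cdc6* 11.03 times and that of *Ubr7* 2.27 times. Over the 36 combinations of cell type and library, the genes outside the list whose log2 scaled counts followed the mean of the 41 most closely were *Pole* (0.976), *Kif15* (0.973), *Aurkb* (0.972), *Ercc6l* (0.971), *Tcof1* (0.969), *Dnajc9* (0.968), *Tk1* (0.959), *Lig1* (0.958), *Sgo1* (0.958) and *Incenp* (0.958). *Pole*, *Tk1* and *Lig1* act in DNA synthesis, and *Aurkb*, *Incenp*, *Kif15*, *Sgo1* and *Ercc6l* in mitosis. The points share libraries, depth and cell types, so the values of Pearson's r are given without a test.

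The 57 other replication genes followed the 41 in most of these contrasts. In OFT CMs *Ccna2*, the cyclin of S phase and G2 (-2.33 ± 0.15), *Brip1*, a helicase of repair (-2.57 ± 0.27), and *Tk1*, thymidine kinase (-2.34 ± 0.14), changed most, and the subunits of the origin recognition complex *Orc4* (-0.16 ± 0.06) and *Orc5* (-0.34 ± 0.10) least among those called. In chamber EdCs the E2F factor *E2f2* (1.22 ± 0.19), *Brip1* (1.02 ± 0.13) and *Tk1* (1.06 ± 0.09) were higher than in ventricular CMs, while *Dctpp1*, which clears modified nucleotides (-0.90 ± 0.06), *Mcm8* (-0.88 ± 0.12) and *Ccna2* (-0.84 ± 0.12) were lower. *Tk1* and *Tyms*, which both supply thymidylate, thus rose together in chamber EdCs. In epicardial cells 28 were higher and 15 lower, led by *Brip1* (1.40 ± 0.11) and *E2f7*, a repressor of the same kind as *E2f8* (1.06 ± 0.12), and, in the other direction, by *Cdc7*, the kinase that fires origins (-0.69 ± 0.09). *E2f7* and *E2f8* thus went in opposite directions there. In cushion against chamber EdCs 29 were lower and 1 higher, with *Ccne1*, the other E-type cyclin, at -1.02 ± 0.13. In atrial against ventricular CMs 40 were lower and 1, *Orc4* (0.15 ± 0.05), was higher, and for high against low *Nppa* 18 were lower and 1 higher.

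By genotype, S phase genes stood lower in the *Tie2-cko* libraries in chamber EdCs, and no single gene passed the test within any type. *Tek* was also lower with the deletion in cushion EdCs, at 0.850 and 1.65 in control and 0.349 and 0.285 in *Tie2-cko* libraries. In cushion MCs it was at 0.155 and 0.307 in control and 0.0229 and 0.0170 in *Tie2-cko* libraries. The *Tek* left in *Tie2-cko* libraries was higher in cushion EdCs than in chamber EdCs (0.132 and 0.137). Whether the extent of deletion bears on the S phase genes was not tested. The summed level of chamber EdCs was 29.3 and 32.6 in control and 28.0 and 25.5 in *Tie2-cko* libraries. Both *Tie2-cko* libraries lay below both controls, with differences of -1.36 between libraries 5 and 6 and -7.10 between libraries 7 and 8. The difference of -4.23 (control 31.0 ± 2.32, *Tie2-cko* 26.8 ± 1.74, SD, n = 2) gave an exact two-sided permutation p of 0.333, the smallest that 2 against 2 libraries allow (0.857 adjusted over 9 cell types). Without library 7 it was -2.59 and without library 8 -3.00. Thinned to 5500 UMIs, the values were 29.4 and 33.0 in control and 26.6 and 25.4 in *Tie2-cko* libraries. Cells with 20 or more UMIs of the 41 genes were fewest in the *Tie2-cko* libraries as well, though libraries 5 and 6 were nearly level, with 27.6 and 40.1% in control and 27.0 and 23.3% in *Tie2-cko* libraries.

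No S phase gene was called in chamber EdCs by edgeR or DESeq2, where 0.00876% of all genes were called by edgeR. At an unadjusted p under 0.05 there were 8 of 41, all lower, and 793 of 11422 over all genes. The log2 fold change was above 0 for 2 of the 41 genes and for 50.4% of all genes, and its median was -0.28 against 0.00. For 26 of 41 genes both *Tie2-cko* libraries lay below both controls, where 17.7% of all genes did, and for 0 both lay above. *Tyms* had the lowest p, with 1.99 and 2.36 (control) and 1.75 and 1.5 (*Tie2-cko*) (-0.44 ± 0.14, adjusted p = 0.535). *Uhrf1* (-0.40 ± 0.14), *Blm* (-0.40 ± 0.16) and *Pola1* (-0.39 ± 0.16) were next. A term for libraries 5 and 6 against 7 and 8, which the labels do not give, was taken from how these same data fell. It also leaves less replication to measure the spread. With this term 13 genes were called, all lower, where 7.4% of all genes were called. They were *Mcm5*, *Mcm7*, *Cdc6* and *Gins2* of licensing and the helicase, *Pola1*, *Rpa2* and *Fen1* of synthesis, *Tyms*, *Rrm2*, *Uhrf1*, *Nasp*, *Clspn* and *Blm*. UMIs of globin genes in chamber EdCs moved with the genotype, at 93.5 and 39.95 per 10000 in control and 14.7 and 15.3 in *Tie2-cko* libraries, and those of sarcomere genes overlapped (33.9 to 62.2 over the 4 libraries). The part of either in these results was not tested. With both and mitochondrial genes left out of the denominator the difference in summed level was -4.63. In sums over cells, fewer cells in S phase and fewer S phase transcripts per cell cannot be told apart.

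Of the 41 genes, *Rrm2* alone differed in its genotype effect between chamber EdCs and ventricular CMs with high *Nppa* (difference of log2 fold changes -0.53 ± 0.11, adjusted p = 0.0316, edgeR with the library as a block), where 0.522% of all genes did. Its levels in chamber EdCs were 0.766 and 1.23 (control) and 0.652 and 0.689 (*Tie2-cko*), and library 7 stood above the other 3. In ventricular CMs with high *Nppa* they were 0.760 and 1.05 (control) and 0.995 and 0.987 (*Tie2-cko*), and library 5 stood below the other 3. The call was lost without library 7 (adjusted p = 0.446), with DESeq2 (adjusted p = 0.226), without the removal of doublets (adjusted p = 0.139) and under a stricter filter of cells (adjusted p = 0.055). Without library 5, 6 or 8 it was kept, and 3, 2 and 3 S phase genes were called in all, where 1.41%, 1.3% and 3.23% of all genes were.

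In SV/AVC CMs, which lie outside the endocardium, S phase genes stood higher in the *Tie2-cko* libraries, and whether this differs from chamber EdCs was not tested. The summed level was 11.6 and 9.67 in control and 15.4 and 11.2 in *Tie2-cko* libraries, and control library 5 lay above *Tie2-cko* library 8. The difference was 2.67 (exact permutation p = 0.667, n = 2 against 2), or 3.78 between libraries 5 and 6 and 1.55 between 7 and 8. Its size moved with the libraries and the settings. The difference was 0.591 without library 6, 1.71 without library 7 and 4.75 without library 8. It was 1.56 under the stricter filter of cells and 1.33 with cycle genes kept in the clustering. From counts summed over cells it was 3.996, and in cells thinned to 5500 UMIs it was 3.03. The exact permutation p was 0.333 for each, the smallest that 2 against 2 libraries allow. The thinned values were 11.27 and 9.81 in control and 15.75 and 11.38 in *Tie2-cko* libraries. Library 8 was then just above control library 5. UMIs of globin genes moved with the genotype here too, at 59.4 and 30.1 per 10000 in control and 13.5 and 11.7 in *Tie2-cko* libraries, and their part was not tested. Library 6 had the fewest SV/AVC CMs, 171, against 405 to 548 in the others, and the most UMIs per cell. The 2 regions also entered in unequal numbers. There were 172 sinus venosus and 233 canal CMs in control library 5 and 167 and 381 in control library 7. In *Tie2-cko* library 6 there were 85 and 86, nearly level, and in *Tie2-cko* library 8 117 and 389. Taken alone, the sinus venosus stood at 17.0 and 15.98 in *Tie2-cko* libraries, above both controls (13.9 and 13.8). In the atrioventricular canal library 8 (9.79) lay just below control library 5 (9.88).

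No gene was called in SV/AVC CMs by edgeR, where 0% of all genes were, and no S phase gene by DESeq2. At an unadjusted p under 0.05 there were 13 of 41, all higher, and 173 of 12391 over all genes. The log2 fold change was above 0 for all 41 genes, with a median of 0.51, and for 50.8% of all genes. Without library 6 the median was 0.24, and 35 were above 0. For 25 of 41 both *Tie2-cko* libraries lay above both controls, against 12.6% of all genes. *Ccne2* had the lowest p (0.75 ± 0.17), with 0.121 and 0.116 (control) and 0.226 and 0.163 (*Tie2-cko*). *Rrm2* was next (0.63 ± 0.15), with 0.274 and 0.296 (control) and 0.424 and 0.389 (*Tie2-cko*), followed by *Cdc6* (0.90 ± 0.23). The genotypes did not overlap for *Ccne2* and *Rrm2*, and the adjusted p was 0.9999 for each of the 3. With the term for libraries 5 and 6, which leaves less replication here too, 11 genes were called, all higher, where 0.662% of all genes were called. They were *Mcm2*, *Mcm6* and *Cdc6* of licensing and the helicase, *Rrm2*, *Prim1*, *Atad2*, *Hells*, *Exo1*, *Tipin*, which protects stalled forks, *Dtl* and *Ccne2*. Genes of G2 and mitosis had 37.8 and 35.4 per 10000 in control and 39.6 and 39.6 in *Tie2-cko* libraries.

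In OFT CMs the summed level was 7.44 and 7.51 in control and 8.96 and 7.64 in *Tie2-cko* libraries (exact permutation p = 0.333, n = 2 against 2). The difference of 0.824 changed sign under a stricter filter of cells (-0.388), and without library 6 it was 0.165. No S phase gene was called by either tool (0% of all genes by edgeR), 1 had an unadjusted p under 0.05, and for 10 of 41 both *Tie2-cko* libraries lay above both controls, against 13.2% of all genes. The lowest p was that of *Dtl* (0.55 ± 0.23), with 0.0542 and 0.0546 (control) and 0.0815 and 0.0889 (*Tie2-cko*).

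The other 6 cell types are given in brief. Ventricular CMs with high *Nppa* had 19.6 and 19.99 in control and 19.9 and 19.7 in *Tie2-cko* libraries. In ventricular CMs with low *Nppa* both *Tie2-cko* libraries (22.8 and 23.4) lay below both controls (24.2 and 25.7, exact permutation p = 0.333, n = 2 against 2). The difference of -1.85 became -1.59 without the removal of doublets, -0.914 under the stricter filter and -0.359 with cycle genes kept, and the genotypes overlapped in each of these. Without library 7 it was -1.10. For 13 of 41 genes both *Tie2-cko* libraries lay below both controls, against 11.4% of all genes, and for 10 in atrial CMs both lay above, against 11%. By module score both *Tie2-cko* libraries lay below both controls in cushion EdCs (-0.108 and -0.114 against -0.0987 and -0.0985). In atrial CMs both lay above by that score (-0.162 and -0.1743 against -0.181 and -0.1746). In summed level the genotypes overlapped in atrial CMs, cushion EdCs, cushion MCs and epicardial cells, where the differences of the means were 1.22, -0.381, 0.737 and -1.41. Leaving out 1 library at a time, they ranged over 0.489 to 1.94 (lowest without library 6) in atrial CMs, -1.56 to 0.795 (highest without library 8) in cushion EdCs, -0.132 to 1.61 (lowest without library 6) in cushion MCs and -2.76 to -0.0609 (nearest 0 without library 7) in epicardial cells. No S phase gene was called by edgeR or DESeq2 in any of these 6 types. edgeR called 0.0348% of all genes in cushion EdCs, 0.0335% in epicardial cells and 0% in the other 4. At an unadjusted p under 0.05 there was 1 S phase gene in atrial CMs, *Blm* (0.43 ± 0.18), and 0 in each of the other 5. Of the 57 other replication genes and the 54 genes of G2 and mitosis, 0 were called by edgeR or DESeq2 in any of the 9 types. Those at an unadjusted p under 0.05 in edgeR were 9 other replication genes in chamber EdCs, 8 in SV/AVC CMs and 0 in the other 7 types, and 1 gene of G2 and mitosis each in cushion EdCs and SV/AVC CMs and 2 in OFT CMs. Counts over all genes at that p are given above for chamber EdCs and SV/AVC CMs only. In the other types these counts have no background beside them and are not read as a result. The p-values by genotype set the difference between genotypes against the spread between libraries, which rests on 2 libraries of each genotype.

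**Figure D5:**
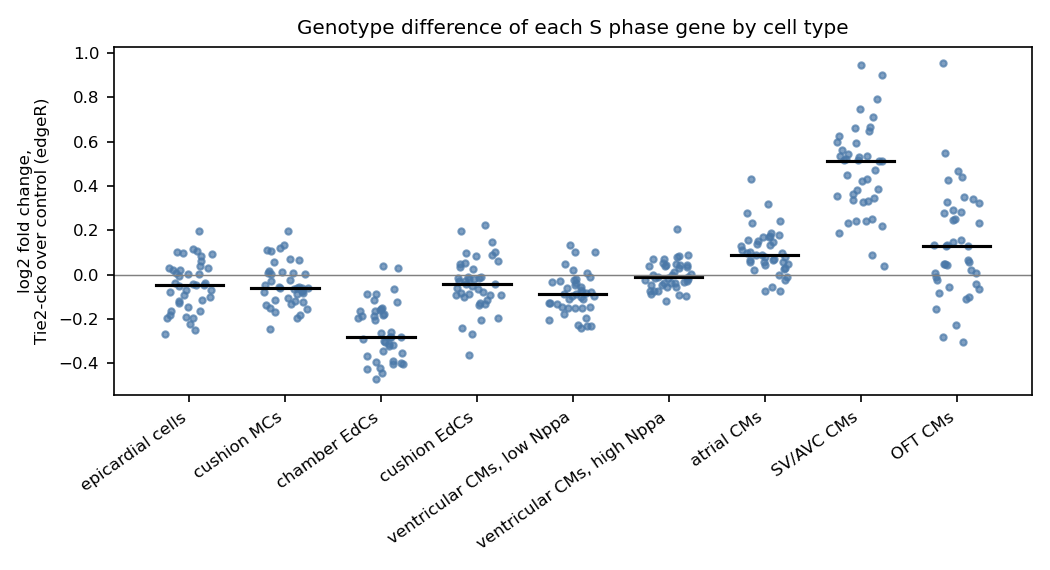
Log2 fold change (y axis, *Tie2-cko* over control, edgeR) of each of the 41 S phase genes in 9 cell types (x axis). Points are genes, spread sideways at random, and lines are medians. The median is -0.28 in chamber EdCs and 0.51 in SV/AVC CMs, and no point passed an adjusted p of 0.05.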

How the data were processed

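Cells from hearts of 2 control and 2 *Tie2-cko* embryos at E10.5 had been profiled with 10x Genomics 3′ chemistry. The deposited values are UMI counts per gene and barcode, made by the authors with Cell Ranger on mm10 per the labels. The file header gives version 6.1.2. Barcodes with at least 500 genes, 1000 UMIs and at most 10% mitochondrial UMIs were kept, and doublets were removed with Scrublet in scanpy 1.11.5. Cells were clustered in Seurat 5.3.0 (2000 variable genes without cycle genes, 30 components, resolution 0.8) and named from fixed markers, with cut-offs chosen after the clusters were seen. The 41 genes and all lists were chosen with earlier results of these data known.

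Levels are the mean over cells of UMIs per 10000. Counts were summed per cell type and library and tested with edgeR 4.0.16 (R 4.3.3, quasi-likelihood, TMM, filterByExpr, Benjamini-Hochberg over all genes tested, 0.05). Genotype was tested within a type, and types in 1 fit with the library as a block. Standard errors are the fold change over the root of F. Summed levels were compared by exact permutation tests in scipy 1.17.1. Cells were thinned to 5500 UMIs, leaving out shallower cells, to compare at equal depth. Genes were named by the largest changes in each direction, together with the 3 genes of highest level. DESeq2 1.42.0, other scaling, filters and clusterings, and leaving out each library were alternatives. The fits were tested on simulated counts.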

Additional observations from a re-analysis of the deposited data

Results flagged for a closer look

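The difference between genotypes in *Rrm2*, the small subunit of ribonucleotide reductase, differed between chamber EdCs and ventricular CMs with high *Nppa* by -0.53 ± 0.11 on the log2 scale (edgeR quasi-likelihood, adjusted p = 0.0316). Within chamber EdCs the genotypes gave -0.47 ± 0.22 (adjusted p = 0.742), and within ventricular CMs with high *Nppa* 0.07 ± 0.19 (adjusted p = 0.9999). It was drawn to attention by the test of this difference, which was not passed without library 7, by DESeq2, without the removal of doublets or under a stricter filter of cells.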

How the results depend on the processing

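Of 3401 values computed under other settings, 415 of those for whole comparisons were counted as unchanged. For summed levels this meant the same direction alone, without regard to p. For counts of genes called it meant a change no larger than the factor given below for such counts. Of the values for single genes, 2732 kept their direction and their side of the threshold. Of single genes 200 were no longer called and 15 newly called. The scaling to total UMIs, the sub-clusters taken apart, the *Nppa* bins and the clustering with another random seed were chosen after seeing the data. In the 7 contrasts between cell types the mean differences in summed level kept their sign under every setting run.

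Small genotype differences in summed level changed sign. That of ventricular CMs with high *Nppa* was 0.0281, and -0.130 when thinned, -0.00607 as a module score, -0.170 with a trimmed denominator, -0.280 under the stricter filter of cells, -0.468 with cycle genes kept in the clustering, -0.0961 with another seed and -0.187 to 0.243 leaving out 1 library. That of cushion EdCs (-0.381) was 0.307 from summed counts, 0.0455 with cycle genes kept and -1.56 to 0.795 leaving out 1 library, with the sign turned without library 8. That of cushion MCs (0.737) was -0.132 to 1.61 leaving out 1 library, with the sign turned without library 6. As a module score, on its own scale, it was -0.00702. That of OFT CMs was -0.388 under the stricter filter.

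Counts of genes called, both directions together, moved by over 1.5 times in 4 comparisons. With the term for libraries 5 and 6 there were 13 genotype calls in chamber EdCs and 11 in SV/AVC CMs, in place of 0. For high against low *Nppa* they were 26 scaled to total UMIs, 8 when thinned and 10 to 18 leaving out 1 library. By direction, cushion against chamber EdCs went from 26 lower genes to 16, chamber EdCs against ventricular CMs from 7 to 3 and epicardial cells from 6 to 2 when scaled to total UMIs. Epicardial cells had 3 lower genes when thinned and 3 with DESeq2, and cushion MCs 15 higher genes without library 5 and 15 without library 8, in place of 24. For high against low *Nppa* there were 15 higher and 5 lower genes with cycle genes kept, 2 and 10 without removal of doublets, and 9 lower without library 5, in place of 1 and 16. For thinning, DESeq2, doublets and libraries left out of contrasts between types, the share of all genes called is not given. Whether all genes moved alike there was not tested. The single call of the interaction, *Rrm2*, became 0 with DESeq2, without removal of doublets and under the stricter filter, and 0 to 3 leaving out 1 library.

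Against ventricular CMs, *Mcm2* in chamber EdCs was 0.079 scaled to total UMIs and 0.040 with cycle genes kept, and *Blm* 0.042 scaled to total UMIs. In epicardial cells *Wdr76*, *Ung* and *Blm* were 0.032, 0.14 and 0.081 scaled to total UMIs, *Ung* 0.24 with cycle genes kept and *Exo1* -0.021 when thinned. For high against low *Nppa*, with cycle genes kept, *Mcm3* was 0.14, *Mcm4* 0.22, *Nasp* 0.065 and *Uhrf1* 0.074. The cause of these changes was not tested. The genotypes share no replicate number in the labels, so the matched pairs of the study are not known here, and the term for libraries 5 and 6 against 7 and 8 is the only fit that pairs libraries. Depth limits the rarest genes, such as *Mcm10*, at 0.00547 to 0.0222 UMIs per 10000 in OFT CMs.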

Other observations

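Cells outside the 9 types also held S phase transcripts. Immune or platelet cells had summed levels of 32.3 to 46.7 UMIs per 10000 over the 4 libraries and epithelial cells 31.9 to 35.6. Red blood cells were at 16.2 to 19.4, and at 30.3 to 36.6 with globin, sarcomere and mitochondrial genes left out of the denominator. Endothelial cells with low *Nrg1*, which were not named further, had 26.3 to 34.0, together with 62.6 to 93.4 for the genes of G2 and mitosis. MCs with low *Msx1* held 27.1 to 29.1, against 29.0 to 31.2 in cushion MCs.

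Among atrial CMs, a sub-cluster with low *Nppa* had summed levels of 14.9 and 13.6 (control) and 18.9 and 13.3 (*Tie2-cko*), and the other atrial CMs 15.3 and 16.4 (control) and 17.5 and 16.7 (*Tie2-cko*). These values are given without a test.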
